A study of Mus musculus with 32 samples.

Results

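The 109 loci described here are mouse genes that carry placeholder names and whose RNA differed after lipopolysaccharide (LPS) in wild-type (WT) bone marrow-derived dendritic cells. They were chosen by 3 conditions: a symbol that ends in Rik or is Gm followed by digits, a level of 1 RPKM or more in 4 or more of all 32 libraries, and a mean log2(RPKM + 0.5) in WT at 1, 2 or 6 h of LPS that differed by 2 or more (4-fold) from WT without LPS. RPKM are reads divided by the gene's length and the library's depth. Of 2715 Rik and Gm entries, 725 passed the filter on RPKM and 109 of those (88 Rik and 21 Gm) passed the threshold, out of 11154 genes of all names that passed the filter and 22216 in the tables.

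Dendritic cells were grown from C57BL/6 bone marrow with GM-CSF and harvested on day 9. They were WT or Lmp7-/-Mecl1-/- (dKO), lacking the immunoproteasome subunits LMP7 (Psmb8) and MECL1 (Psmb10), and each genotype was taken with no LPS and after 1, 2 or 6 h with 1 ug/mL LPS, giving 8 groups of 4 libraries. All groups share the strain and the GM-CSF culture. The labels name no mouse, culture or batch, so the p-values measure only the spread between libraries.

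LPS engages TLR4, which signals from the plasma membrane through MyD88 to NF-kappaB and AP-1 and from endosomes through TRIF to IRF3. The first arm gives a fast wave of inflammatory genes such as Il1b and Tnf, and the second gives interferon beta, whose receptor drives a later wave of interferon-stimulated genes such as the Ifit family, through interferon-stimulated response elements. Maturing dendritic cells at the same time lower genes of the cell cycle, of phagocytosis and of the resting state. Rik and Gm symbols were given to cDNA clones and predicted genes before their products were known, and a placeholder says nothing of function.

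The label uncharacterised held for a minority of the loci. RefSeq (GRCm38.p6) had 107 of the 109, 40 under the same symbol and 67 as a synonym of a newer one, and 1110020G09Rik and 1810014F10Rik were not matched. The matched loci were 88 protein-coding genes, 17 long non-coding RNAs, 1 pseudogene and 1 transcribed pseudogene. The 22 loci that were higher comprised 15 coding genes, 5 non-coding RNAs and both pseudogenes, and the 87 that were lower comprised 73 coding genes and 12 non-coding RNAs beside the unmatched pair.

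Between 1.27 and 1.87 Gb of aligned bases fell on genes in each library (1.55 ± 0.142 Gb, SD, n = 32). Psmb8 read 150.3 to 312 RPKM in WT and 2.67 to 7.42 in dKO libraries, and Psmb10 read 41.6 to 131 and 2.37 to 17.1. All 10 dendritic cell markers passed the filter (Itgax, H2-Ab1 and Flt3 among them), and no B cell or erythroid marker did. So did 10 macrophage, 8 granulocyte, 4 mast cell and basophil and 1 T and NK cell markers. In 5 dKO libraries the whole profile lay nearest to the WT mean of another time than the label gives: no LPS replicate 2 (nearest to 1 h), 1 h replicate 2 (nearest to 2 h), 2 h replicate 2 (nearest to no LPS), 2 h replicate 4 (nearest to 6 h) and 6 h replicate 4 (nearest to 2 h). They are kept as labelled, and the cause was not tested. Counts and changes in dKO are given with all libraries and without these 5, except the sums and counts of listed genes between genotypes. The 5 were picked by profile over the same genes tested, so leaving them out brings dKO nearer to the WT course by construction. Results without them are thus no independent support. Without them 2 libraries remain in dKO at 2 h and 3 in each other dKO group. Beyond the division by depth, RPKM carry no scaling between libraries. Over all genes tested the median WT change was -0.42, -0.73 and -0.65 at 1, 2 and 6 h.

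Promoters of 7 of the induced loci are printed because they hold a match to the motif of a factor that LPS engages. They are 250 bases before to 50 after a RefSeq start site, in GRCm38.p6 coordinates. Capitals mark matches, on either strand, to the kappaB consensus, to the response element core GAAANNGAA or to the AP-1 site TGANTCA.

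Gm14023 promoter (chr2:129297120-129297419, plus strand): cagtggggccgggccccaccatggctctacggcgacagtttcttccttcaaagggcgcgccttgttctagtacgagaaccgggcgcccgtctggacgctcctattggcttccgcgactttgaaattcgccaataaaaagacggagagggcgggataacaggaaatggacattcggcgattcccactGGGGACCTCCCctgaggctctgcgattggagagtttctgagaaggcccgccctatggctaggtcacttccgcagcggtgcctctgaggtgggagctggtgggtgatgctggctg
A630072M18Rik promoter (chr5:20950739-20951038, plus strand): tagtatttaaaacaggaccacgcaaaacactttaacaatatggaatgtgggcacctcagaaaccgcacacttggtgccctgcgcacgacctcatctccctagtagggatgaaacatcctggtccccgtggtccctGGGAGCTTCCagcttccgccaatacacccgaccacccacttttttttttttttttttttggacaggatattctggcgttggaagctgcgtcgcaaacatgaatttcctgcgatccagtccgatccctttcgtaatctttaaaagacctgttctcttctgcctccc
1190002H23Rik promoter (chr14:79301586-79301885, minus strand): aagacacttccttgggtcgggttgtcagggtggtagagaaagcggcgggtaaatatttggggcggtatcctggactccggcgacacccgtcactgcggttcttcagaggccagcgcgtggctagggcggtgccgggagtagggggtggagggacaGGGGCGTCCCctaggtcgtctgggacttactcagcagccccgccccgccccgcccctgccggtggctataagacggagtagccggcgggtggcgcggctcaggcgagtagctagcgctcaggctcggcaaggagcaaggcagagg
Gm14446 promoter (chr19:34601919-34602218, minus strand): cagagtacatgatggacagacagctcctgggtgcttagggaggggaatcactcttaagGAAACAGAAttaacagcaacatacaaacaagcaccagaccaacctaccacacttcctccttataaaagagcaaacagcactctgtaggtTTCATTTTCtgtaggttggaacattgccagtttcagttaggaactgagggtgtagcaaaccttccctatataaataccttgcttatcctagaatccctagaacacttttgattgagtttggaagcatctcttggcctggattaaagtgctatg
I830012O16Rik promoter (chr19:34607707-34608006, plus strand): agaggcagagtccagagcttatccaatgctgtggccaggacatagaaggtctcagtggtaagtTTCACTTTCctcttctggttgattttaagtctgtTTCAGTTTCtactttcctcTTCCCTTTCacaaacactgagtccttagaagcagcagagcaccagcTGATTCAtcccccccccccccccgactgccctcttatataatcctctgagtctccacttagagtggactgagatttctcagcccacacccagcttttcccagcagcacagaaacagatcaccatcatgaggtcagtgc
Gm12250 promoter (chr11:58183593-58183892, plus strand): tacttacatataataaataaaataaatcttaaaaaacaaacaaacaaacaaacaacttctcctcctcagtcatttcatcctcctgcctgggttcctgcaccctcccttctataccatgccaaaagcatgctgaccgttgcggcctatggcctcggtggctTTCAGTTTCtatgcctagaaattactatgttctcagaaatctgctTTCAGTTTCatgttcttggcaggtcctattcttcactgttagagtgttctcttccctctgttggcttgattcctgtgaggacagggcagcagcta
Gm4902 promoter (chr14:59341281-59341580, minus strand): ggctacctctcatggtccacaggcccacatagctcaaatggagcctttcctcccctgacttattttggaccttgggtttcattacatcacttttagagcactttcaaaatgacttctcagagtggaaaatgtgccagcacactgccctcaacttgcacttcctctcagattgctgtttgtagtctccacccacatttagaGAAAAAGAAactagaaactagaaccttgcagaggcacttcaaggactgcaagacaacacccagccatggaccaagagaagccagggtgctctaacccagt

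In the early non-coding RNA Gm14023 the capitals cover a pair of overlapping kappaB matches that begin 64 and 63 bases before the start, and in A630072M18Rik and 1190002H23Rik a kappaB match begins 115 and 95 bases before it. Gm14446 holds GAAANNGAA at -192 and -103, I830012O16Rik at -187, -153 and -134 with TGANTCA at -88, Gm12250 at -90 and -45, and Gm4902 at -50. Over the 21 promoters of the 19 higher loci with a RefSeq promoter, 23.8% held GAAANNGAA (5 promoters, 4 loci), 14.3% the kappaB consensus (3) and 9.52% TGANTCA (2). Over the 79 promoters of 71 lower loci the shares were 7.59%, 8.86% and 5.06%, and over all 32851 RefSeq promoters 8.56%, 8.46% and 7.81%. Gm11435, also higher, held TGANTCA at -146 and is not printed. Every other higher locus with a RefSeq promoter held no match. Among these were Gm14047, Gm6377, 4930487H11Rik, Gm5431, Gm6907, A530032D15Rik and C130026I21Rik. Only these letters in this window were searched, and a match is not a bound site.

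In WT, 22 of the 109 loci were higher and 87 lower at the time of their largest change. These values chose the loci and are given as a description, with no test. The loci made up 15.03% of the Rik and Gm loci that passed the filter, and 15.8% of genes with other names passed the same threshold. Of all 11154 genes, 4.48% were past it and higher, and 11.2% were past it and lower. The largest change came at 1, 2 and 6 h in 3, 4 and 15 of the higher loci and in 2, 41 and 44 of the lower ones. A total of 76 loci passed the threshold at a single time, 28 at 2 times and 5 at all 3.

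The direction split depends on scaling. With median-of-ratios scaling 42 Rik and Gm loci were higher and 22 lower by the same rule (65.6% higher), and with quantile normalization 45 and 23, against 22 and 87 without scaling (20.2% higher). Set against the median gene at the same time, the 22 higher loci were at 2.52 or above. The 87 lower loci were at or below -1.27, with 23 of them at -2 or below. The threshold of 2 and the size of the median changes fix in advance that each lower locus lies below the median gene. These values therefore describe sizes only, and most lower loci lay below the median gene by less than 4-fold. The loci nearest to the threshold were 6030446N20Rik (-2.001), A430005L14Rik (-2.003) and Gm13157 (-2.02) inside it and E330016A19Rik (1.996), D330012F22Rik (-1.99) and Gm5512 (-1.98) outside it.

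**Figure D1:**
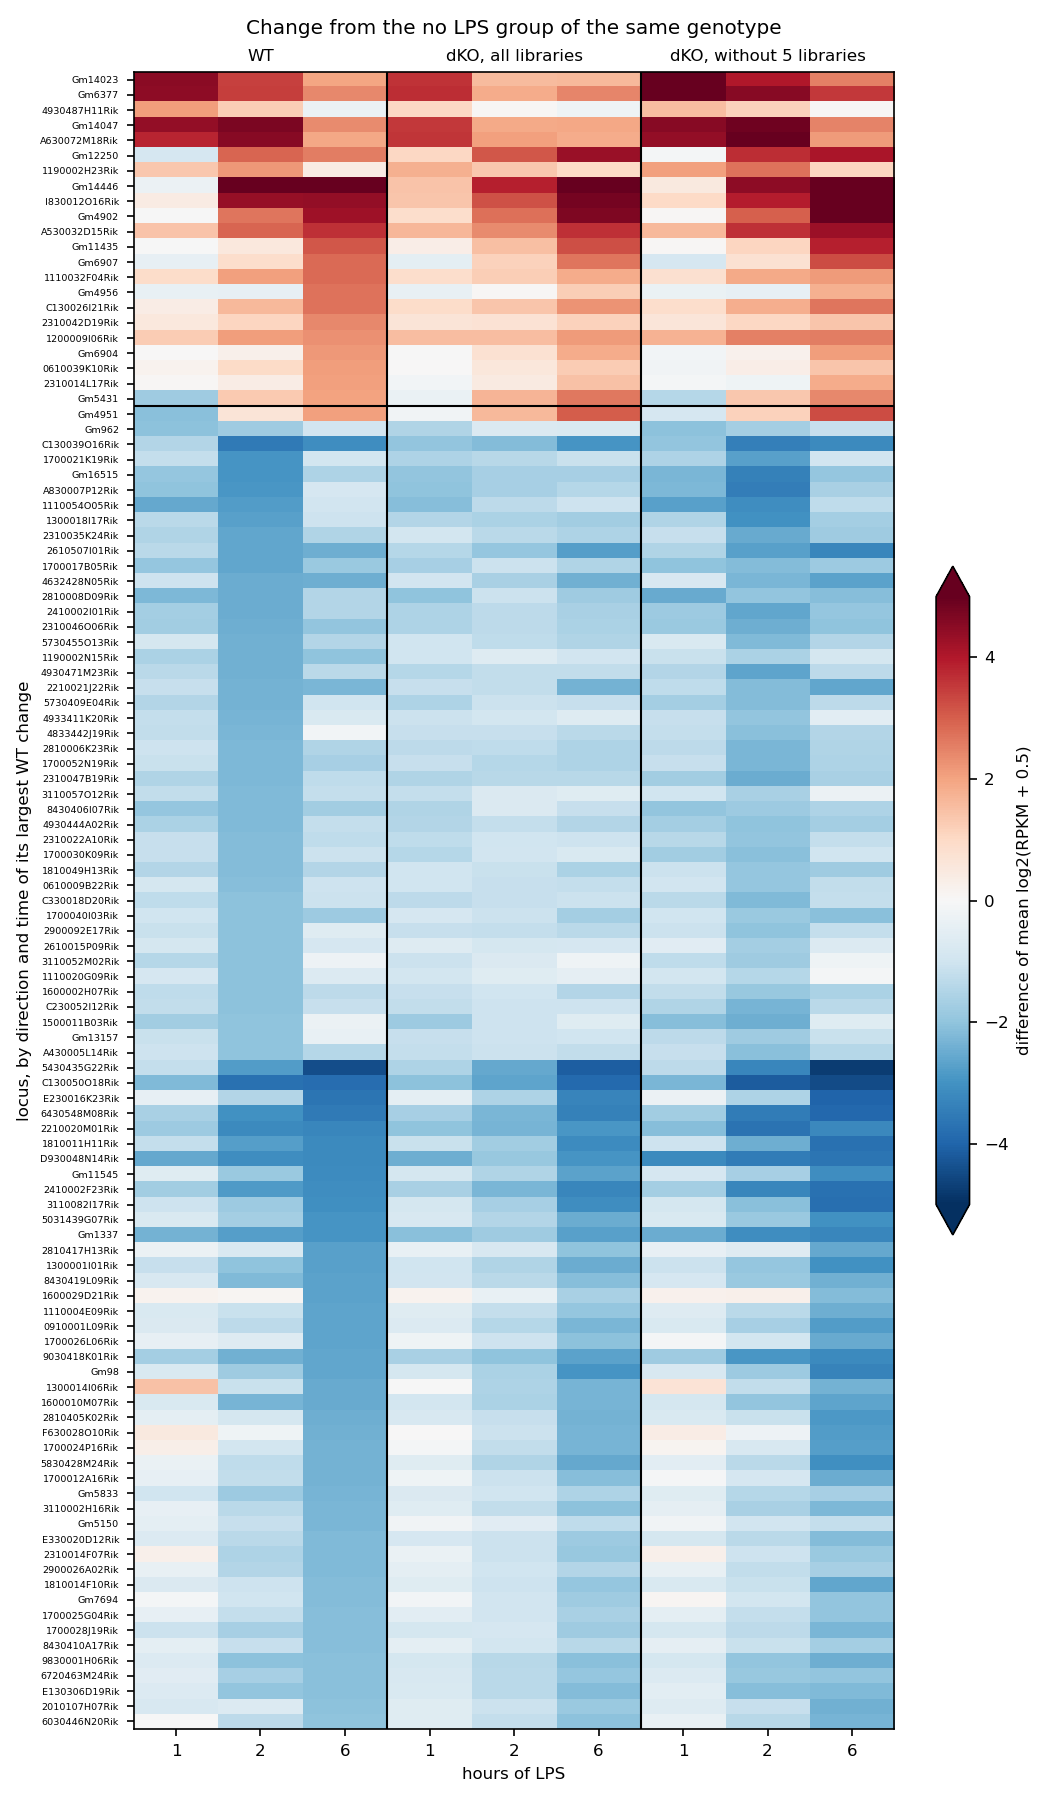
Each row is 1 of the 109 loci, ordered by direction and by time of the largest WT change, and the columns are 1, 2 and 6 h of LPS against the no LPS group of the same genotype for WT, for dKO with all libraries and for dKO without the 5 libraries nearest to another time. Colour is the difference of mean log2(RPKM + 0.5), shown from -5 to 5; the horizontal line divides the 22 higher from the 87 lower loci.

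The LPS comparisons within dKO did not enter the threshold that chose the loci, but the dKO libraries did enter the filter on RPKM, so a locus could pass it through a dKO group where it was high. With all libraries, 10 of the 109 loci rose and 58 fell at 1 h of LPS in dKO, where 5.82% and 44.1% of all genes tested did so (limma, adjusted p below 0.05). At 2 h, 16 rose and 78 fell (background 9.17% and 53.8%), and at 6 h, 20 rose and 79 fell (14.7% and 60.2%). With the dKO 2 h and no LPS groups fitted alone, limma called 0 of the loci at 2 h (61 at an unadjusted p below 0.05), so no 2 h call in dKO given below held in that fit. Without the 5 libraries, 14 rose and 78 fell at 1 h (background 9.49% and 67.8%), 19 and 84 at 2 h (13.8% and 72.3%), and 22 and 84 at 6 h (18.8% and 68.5%). The 3 comparisons share the dKO libraries without LPS.

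By direction in WT, 10, 15 and 19 of the 22 higher loci rose in dKO at 1, 2 and 6 h (12, 18 and 21 without the 5 libraries), and 58, 78 and 79 of the 87 lower loci fell (76, 84 and 84). The median dKO change of the 22 was 0.97, 1.53 and 2.04, that of the 87 was -0.99, -1.18 and -1.75, and that of all genes was -0.41, -0.48 and -0.62. The background for falling rests on the scale: under median-of-ratios scaling 1246 of the 11154 genes fell at 1 h in place of 4916, and 34 of the 109 loci in place of 58. Leaving out dKO 1 h replicate 2 alone brought the 1 h count of rises and falls from 68 to 33, and leaving out dKO no LPS replicate 1, 3 or 4 brought it to 42, 44 and 42.

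The fastest induced loci included 3 non-coding RNAs and a predicted coding gene that were higher within 1 h. Gm14047, now Il1bos, lies at chr2:129195638-129201469 (mm9) and overlaps Il1b, which encodes the inflammatory cytokine interleukin-1 beta. In WT it read 0.528, 0.395, 0.703 and 0.472 RPKM without LPS and 24.3, 19.5, 21.2 and 18.9 at 1 h. The WT values at 2 and 6 h were 25.1, 25.4, 22.97 and 30.8 and 5.13, 6.86, 3.61 and 4.12. The WT libraries of each LPS time lay above all those without LPS, and the 6 h libraries lay between. In dKO it read 0.462, 19.7, 0.357 and 0.0420 without LPS and 24.3, 28.7, 15.6 and 13.6, 25.1, 0.117, 18.8 and 5.29 and 4.07, 5.16, 2.56 and 24.1 at 1, 2 and 6 h. The dKO library without LPS that read as high as the LPS groups (replicate 2) and the lowest one at 2 h (replicate 2) are both among the 5. Gm14047 rose by 3.54 (SE 0.872, adjusted p = 0.00596) at 1 h and by 4.54 without the 5.

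Gm14023, at chr2:129123106-129133562 (mm9), overlaps Il1a, the gene of interleukin-1 alpha, and in WT went from 1.35, 0.405, 0.715 and 0.814 RPKM to 28.8, 28.5, 29.1 and 28.1 at 1 h, 13.9, 12.4, 13.1 and 12.97 at 2 h and 5.17, 4.72, 4.64 and 3.92 at 6 h. The WT groups did not overlap, and each later group was lower than the 1 h group. In dKO it read 0.672, 39.1, 0.475 and 0.311 without LPS, 36.5, 20.5, 33.1 and 30.2 at 1 h, 18.95, 1.17, 12.4 and 6.29 at 2 h and 5.23, 5.13, 5.11 and 16.8 at 6 h. It rose by 3.60 (SE 0.762, adjusted p = 0.00496, and 5.11 without the 5) at 1 h. Il1a itself was higher by 7.40, 7.31 and 5.83 in WT, and Il1b by 5.99, 5.82 and 4.59. The library kit does not mark strand, so reads of an overlapping partner cannot be told apart from those of the non-coding locus.

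A630072M18Rik, a non-coding RNA at chr5:20456807-20462216 (mm9) that no other entry overlaps, peaked at 2 h. Its WT values were 0.843, 0.709, 0.962 and 0.810 without LPS, 21.6, 16.6, 17.8 and 17.6 at 1 h, 31.99, 32.1, 29.7 and 28.7 at 2 h and 4.68, 4.48, 4.19 and 5.18 at 6 h. In dKO the values were 0.941, 23.1, 0.701 and 0.644, 29.7, 47.03, 24.4 and 24.5, 46.3, 0.601, 48.1 and 5.13 and 5.09, 4.81, 5.17 and 48.5. The WT groups were apart from one another, and in dKO the no LPS library of replicate 2 lay just under the 1 h values. A630072M18Rik rose by 3.56 (SE 0.882, adjusted p = 0.00609, and 4.40 without the 5) at 1 h and 2.06 (SE 0.882, adjusted p = 0.0443, and 5.25 without the 5) at 2 h in dKO. The 2 h call was lost on leaving out dKO no LPS replicates 1, 3 or 4 or dKO 2 h replicates 1 or 3 (adjusted p = 0.118 to 0.207).

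Gm6377, a predicted coding gene on chromosome X, was the most abundant of the early loci at 1 h in WT. Its WT libraries read 2.55, 2.72, 3.66 and 2.95 RPKM without LPS and 77.5, 76.6, 71.4 and 76.5 at 1 h. At 2 and 6 h WT read 39.9, 40.6, 37.1 and 33.3 and 17.3, 19.7, 18.9 and 16.2. Its dKO libraries read 2.998, 82.9, 1.34 and 1.35, 84.1, 49.5, 79.3 and 80.1, 55.8, 1.57, 51.02 and 29.3 and 24.8, 25.4, 27.8 and 48.2. In WT each group was apart from the others with the order 1 h, 2 h, 6 h and no LPS. The dKO rise was 3.69 (SE 0.822, adjusted p = 0.00496, and 5.16 without the 5) at 1 h and 2.46 (SE 0.822, adjusted p = 0.00915, and 3.54 without the 5) at 6 h.

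4930487H11Rik, a non-coding RNA inside the span of the neuropilin gene Nrp2, was higher at 1 h (2.10 in WT) and back at -0.30 by 6 h, and rose in dKO at 1 h by 1.05 (SE 0.357, adjusted p = 0.0205, and 1.53 without the 5). 1190002H23Rik, now Rgcc, a regulator of the cell cycle, read 15.3, 15.1, 15.2 and 18.7 RPKM in WT without LPS, 41.8, 45.99, 36.3 and 40.6 at 1 h, 80.2, 76.7, 62.2 and 74.8 at 2 h and 20.6, 23.7, 22.3 and 19.4 at 6 h, so its groups did not overlap and the 6 h libraries were nearest to the start. The dKO libraries read 19.6, 74.3, 17.6 and 19.6 RPKM without LPS and 79.4, 134, 77.3 and 84.9 at 1 h. The dKO values at 2 and 6 h were 136, 25.8, 120.1 and 52.7 and 50.3, 40.6, 32.3 and 128. In dKO it rose at all 3 times, by 1.76, 1.35 and 1.001 (2.06, 2.72 and 1.07 without the 5 libraries). The 1 h call of 4930487H11Rik was lost without dKO no LPS replicates 1, 3 or 4 or dKO 1 h replicate 2 (adjusted p = 0.0566 to 0.117), the 2 h call of 1190002H23Rik without dKO 2 h replicate 1 (adjusted p = 0.0502) and its 6 h call without dKO no LPS replicates 1, 3 or 4 or dKO 6 h replicate 4 (adjusted p = 0.0939 to 0.193). All 6 of these early loci rose in dKO at 1 h, with a median change of 3.55, and 3 of them at 2 h and 3 at 6 h; without the 5 libraries 6 rose at 1 h, 6 at 2 h and 5 at 6 h. Of all genes 5.82%, 9.17% and 14.7% rose (9.49%, 13.8% and 18.8% without the 5). Over 20 named early LPS genes (Tnf, Cxcl1, Nfkbia and others) the median WT change was 3.74, 3.14 and 2.35, and in dKO 15, 12 and 11 of them rose, and 4 and 5 fell at 2 and 6 h (limma; 18, 14 and 15 rose and 5 and 4 fell without the 5 libraries).

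**Figure D2:**
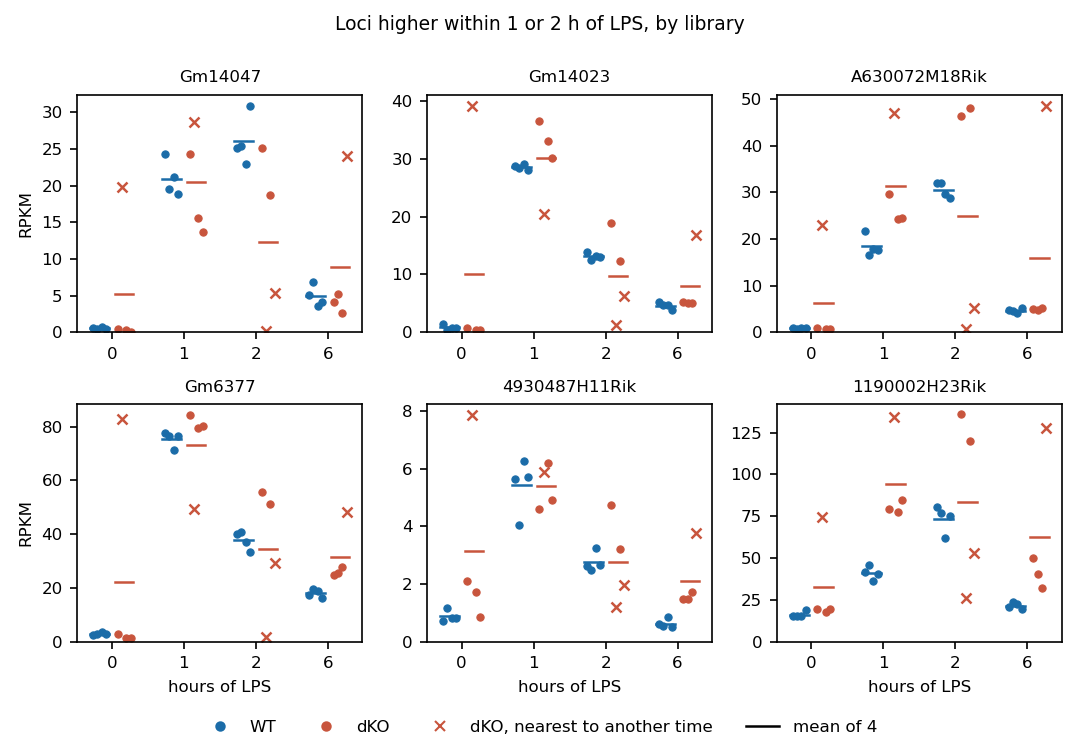
RPKM by library (y axis, linear from 0) at 0, 1, 2 and 6 h of LPS (x axis) for 6 loci induced within 1 or 2 h; dots are libraries, crosses are the 5 dKO libraries nearest to another time, and bars are means of 4. The cross at 0 h lies far above the other dKO libraries without LPS, for example at 39.1 RPKM for Gm14023.

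Loci of interferon-inducible families came later. Gm14446, now Ifit1bl1, and I830012O16Rik, now Ifit3b, belong to the Ifit family, whose proteins bind viral RNA, and lie on chromosome 19 beside Ifit3. Gm14446 read 0.654, 0.673, 0.839 and 0.941 RPKM in WT without LPS and 0.368, 0.248, 0.642 and 1.09 at 1 h. The WT values at 2 and 6 h were 37.2, 27.2, 43.96 and 58.5 and 63.2, 59.8, 66.4 and 90.5. The no LPS and 1 h libraries overlapped, and all 2 and 6 h libraries were at least 27.2. This was the largest WT change among the 109 loci (5.77 at 6 h). Its dKO values were 0.310, 0.114, 0.0435 and 0.0792 without LPS, 0.504, 11.2, 0.304 and 0.393 at 1 h, 9.56, 0.146, 18.95 and 58.97 at 2 h and 48.3, 44.2, 50.2 and 12.6 at 6 h, and it rose by 3.89 (SE 0.833, adjusted p = 0.00353, and 4.46 without the 5) at 2 h and 5.79 (SE 0.833, adjusted p = 6.05e-06, and 6.24 without the 5) at 6 h. The high library at 1 h and the low ones at 2 and 6 h were again among the 5.

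I830012O16Rik went in WT from 0.434, 0.792, 0.659 and 0.631 RPKM to 0.826, 0.670, 1.28 and 1.38 at 1 h, 19.6, 17.9, 23.8 and 30.3 at 2 h and 22.2, 23.5, 22.9 and 23.2 at 6 h, so that the 2 and 6 h groups overlapped. Its dKO values were 0, 0.404, 0.0771 and 0.0702, 0.629, 4.93, 0.492 and 0.666, 6.41, 0.0737, 9.73 and 25.2 and 20.1, 21.3, 21.1 and 8.10, and it rose by 4.77 (SE 0.651, adjusted p = 6.05e-06, and 5.28 without the 5) at 6 h. Ifit3 was higher by 1.27, 4.92 and 5.41 in WT. Ifit genes are close in sequence, and how reads shared between them were counted is not given in the sources used here.

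Gm12250, now known as the immunity-related GTPase Irgb10, which coats and breaks pathogen membranes, read 7.10, 6.63, 6.87 and 8.15 RPKM in WT without LPS and 4.76, 2.22, 4.53 and 4.25 at 1 h. At 2 and 6 h WT read 55.997, 52.95, 53.5 and 64.2 and 46.6, 44.3, 44.6 and 44.6. The 1 h libraries were all below those without LPS, and the 2 h libraries were all above those of 6 h. The dKO libraries gave 2.82, 1.27, 2.97 and 3.58, 3.20, 39.6, 2.59 and 2.83, 38.7, 2.48, 55.6 and 72.2 and 63.6, 59.6, 58.6 and 59.997, and it rose by 4.33 (SE 0.672, adjusted p = 7.73e-06, and 4.08 without the 5) at 6 h. Gm5431, a locus of the same GTPase class beside Irgm1, was lower at 1 h and higher after it, reading 4.78, 5.85, 4.69 and 6.06, 1.02, 1.03, 1.35 and 1.37, 13.4, 13.4, 13.99 and 15.3 and 23.3, 22.4, 23.2 and 24.03 at 0, 1, 2 and 6 h in WT. Its 4 WT groups did not overlap. For Gm5431 dKO read 4.80, 0.990, 4.45 and 5.38 RPKM without LPS and 1.79, 11.9, 1.41 and 1.27 at 1 h. Later, at 2 and 6 h, they read 11.2, 4.33, 15.5 and 28.9 and 28.4, 26.7, 29.03 and 14.6. The dKO change at 1 h was -0.32 (SE 0.478, adjusted p = 0.578) with all libraries and -1.44 (SE 0.117, adjusted p = 8.63e-11) without the 5, and at 6 h it rose by 2.64 (SE 0.478, adjusted p = 3.06e-05, and 2.41 without the 5).

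Gm4951, another interferon-inducible GTPase locus, had the same course and is counted with the lower loci because its WT difference at 1 h (-2.09) was slightly larger in size than that at 6 h (2.07). Its WT libraries read 4.85, 5.92, 4.55 and 4.96 RPKM, then 0.648, 0.782, 0.900 and 0.905, 8.99, 7.04, 8.66 and 8.25 and 23.97, 23.4, 23.9 and 19.9, with no overlap between groups. Its dKO libraries read 1.29, 0.309, 0.941 and 1.40, 0.270, 2.38, 0.392 and 0.744, 2.66, 1.22, 3.90 and 14.9 and 16.4, 15.6, 15.7 and 3.27. In dKO it rose by 1.64 (SE 0.474, adjusted p = 0.00669, and 1.14 without the 5) at 2 h and 3.01 (SE 0.474, adjusted p = 8.48e-06, and 3.27 without the 5) at 6 h. Apart from Gm5431 and Gm4951, 1300014I06Rik (Pxdc1) was the third locus that moved by 1 or more both ways in WT, at 1.46, -1.10 and -2.52.

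The Phf11 family, PHD-finger genes in a cluster on chromosome 14, held 3 of the loci. Gm4902, now Phf11b, had the second highest level of any of the 109 loci, reading 9.49, 7.27, 6.67 and 7.61 RPKM in WT without LPS and 9.48, 6.89, 5.55 and 9.15 at 1 h. The WT values at 2 and 6 h were 55.01, 44.7, 53.1 and 57.2 and 157, 147, 156 and 163. The no LPS and 1 h groups overlapped, and the later groups were apart. Its dKO libraries read 4.94, 3.17, 4.12 and 5.44, 5.29, 34.6, 4.50 and 5.47, 37.7, 2.96, 45.4 and 184 and 169, 154, 176 and 48.6, and it rose by 2.75 (SE 0.683, adjusted p = 0.00378, and 2.98 without the 5) at 2 h and 4.67 (SE 0.683, adjusted p = 6.05e-06, and 4.97 without the 5) at 6 h. Gm6907 (Phf11c) was at 1.75 ± 0.108 RPKM (SD, n = 4) in WT without LPS and 15.7 ± 0.980 at 6 h, and the pseudogene Gm6904 at 0.0286 ± 0.0573 and 1.90 ± 0.323. They rose in dKO at 6 h by 2.67 and 1.86 (3.25 and 2.10 without the 5 libraries). The family's members resemble each other, so reads could be split between them.

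Of the 8 loci of the Ifit, GTPase and Phf11 families, 0 were called by limma at 1 h in dKO (1 at an unadjusted p below 0.05; 1 rose and 3 fell without the 5 libraries), 7 rose at 2 h and 8 at 6 h, with a median change of 3.67 at 6 h (7 and 8 without the 5 libraries), where 9.17% and 14.7% of all genes rose (13.8% and 18.8%). Over 28 named interferon-stimulated genes (Isg15, Mx1, Irf7 and others) the median WT change was 0.09, 2.87 and 3.70, and in dKO 11 were called at 1 h, all as rises (limma; 15 rose and 8 fell without the 5 libraries), and all 28 rose at 2 and 6 h, with and without the 5. A530032D15Rik and C130026I21Rik, predicted coding loci close together on chromosome 1, were higher at every time in WT. A530032D15Rik read 1.29, 1.14, 1.22 and 1.17 RPKM without LPS and 5.04, 3.54, 3.94 and 3.98, 13.3, 11.96, 11.6 and 12.7 and 22.8, 23.4, 20.6 and 18.4 at 1, 2 and 6 h, with no overlap between groups. The dKO libraries read 1.27, 4.28, 1.04 and 0.668 RPKM without LPS and 4.28, 15.1, 3.65 and 4.22 at 1 h. Its 2 and 6 h values were 15.1, 0.982, 20.95 and 22.04 and 30.2, 24.98, 29.03 and 15.2. In dKO it rose at all 3 times, by 1.65, 2.38 and 3.63 (1.63, 3.64 and 4.28 without the 5 libraries), and C130026I21Rik rose by 1.39 at 2 h and 2.25 at 6 h (1.83 and 2.69). The 1 h call of A530032D15Rik was lost without dKO no LPS replicates 1, 3 or 4 or dKO 1 h replicate 2 (adjusted p = 0.0511 to 0.1).

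**Figure D3:**
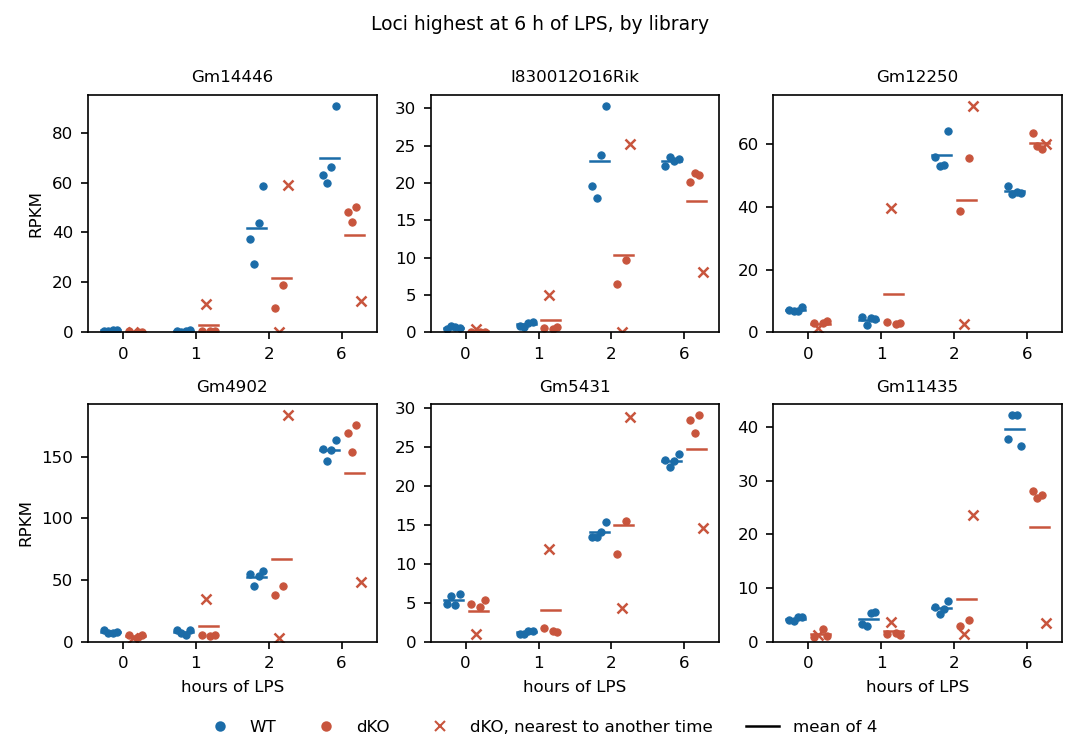
RPKM by library (y axis, linear from 0) against hours of LPS (x axis) for 6 loci that were highest late; symbols as in the plot of the early loci. In dKO the cross at 6 h (replicate 4) lies below the other 3 for Gm14446, I830012O16Rik, Gm4902, Gm5431 and Gm11435.

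The other loci that were higher had their largest change at 6 h. Gm11435, now Heatr9, lies 3604 bases from the chemokine gene Ccl5 and read 3.98, 3.78, 4.53 and 4.52 RPKM in WT without LPS and 3.37, 2.95, 5.26 and 5.44 at 1 h. At 2 and 6 h WT read 6.43, 5.24, 6.06 and 7.57 and 37.8, 42.2, 42.2 and 36.6. Only the 6 h group overlapped no other, and Ccl5 itself was higher by 1.48, 2.80 and 4.47. In dKO Gm11435 was at 0.935, 1.204, 2.40 and 1.09 RPKM without LPS and 1.502, 3.58, 1.65 and 1.19 at 1 h. The dKO values at 2 and 6 h were 2.90, 1.47, 4.05 and 23.6 and 28.1, 26.7, 27.4 and 3.47. It rose there by 3.23 (SE 0.534, adjusted p = 1.26e-05, and 3.89 without the 5) at 6 h. 1200009I06Rik (Exoc3l4), beside Tnfaip2, was higher at all 3 times in WT (1.28, 2.10 and 2.30) and rose in dKO by 1.53, 1.55 and 2.15 (1.75, 2.54 and 2.54 without the 5 libraries). The transcribed pseudogene Gm4956 (2.73 at 6 h), 2310042D19Rik (Perm1, 2.39), 1110032F04Rik (2.85), the non-coding RNA 0610039K10Rik (2.07) and 2310014L17Rik (Rnf225, 2.04) make up the rest. All 5 rose in dKO at 6 h, by 1.16 to 1.84, and by 1.39 to 2.12 without the 5 libraries.

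Many of the lower loci were nearer to their starting level at 6 h than at 2 h: 42 of the 87 had a change of smaller size at 6 h, and for 20 it was smaller by 1 or more on the log2 scale. The 41 loci with their largest change at 2 h are among the 42 by that sorting. Their median WT change was -1.27, -2.26 and -1.27, which reflects the same sorting. A830007P12Rik, now Tor4a, a torsin-family ATPase, shows the course. It read 32.9, 32.8, 32.9 and 32.5 RPKM in WT without LPS, 7.62, 8.88, 7.25 and 6.95 at 1 h, 3.88, 4.48, 3.92 and 3.54 at 2 h and 20.4, 17.04, 17.9 and 17.7 at 6 h, and no groups overlapped. In dKO the values were 36.2, 7.05, 36.5 and 37.2, 5.93, 2.49, 7.28 and 9.13, 3.20, 34.8, 2.66 and 9.27 and 11.7, 12.2, 10.9 and 3.69, and it fell, with a difference of -2.02 (SE 0.529, adjusted p = 0.00725, and -2.24 without the 5) at 1 h and of -1.43 (SE 0.529, adjusted p = 0.0175, and -1.62 without the 5) at 6 h. The 6 h call was lost without dKO no LPS replicates 1, 3 or 4 or dKO 6 h replicate 4 (adjusted p = 0.0573 to 0.0881).

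Genes of endosomes, lysosomes and autophagy made up 8 of the lower loci by their current names, a grouping made after the values were seen. They were 5430435G22Rik (Rab7b, a lysosomal GTPase), 1700021K19Rik (Rubcn, the autophagy regulator Rubicon), 0910001L09Rik (Lamtor4, of the Ragulator complex that anchors mTORC1 at lysosomes), 3110002H16Rik (Rmc1, of the Mon1-Ccz1 complex), Gm962 (Ap5b1) and 2310035K24Rik (Ap5s1) of the AP-5 adaptor, 2410002I01Rik (Tepsin, which binds AP-4) and 1300018I17Rik (Vps9d1). In dKO 5 of the 8 fell at 1 h, 8 at 2 h and 8 at 6 h, with a median change of -1.68 at 6 h, and 8 fell at each time without the 5 libraries. Of all genes 44.1%, 53.8% and 60.2% fell at these times, and 67.8%, 72.3% and 68.5% without the 5 libraries. They split by time in WT: 1700021K19Rik was at -2.97 at 2 h and -0.92 at 6 h, and 0910001L09Rik at -1.29 and -2.65.

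Rab7b (5430435G22Rik), which carries TLR4 to lysosomes, had the largest negative WT change of the 109 loci. It read 19.5, 19.02, 16.05 and 19.98 RPKM in WT without LPS, 6.87, 8.35, 6.92 and 9.26 at 1 h, 2.58, 2.40, 2.002 and 2.04 at 2 h and 0.482, 0.121, 0.510 and 0.486 at 6 h, and every group lay below the one before. The dKO libraries gave 20.4, 8.28, 16.997 and 27.7, 6.63, 1.30, 10.6 and 8.21, 2.46, 18.2, 1.28 and 0.258 and 0.411, 0.388, 0.169 and 1.26. It fell by limma, with a difference of -4.13 (SE 0.590, adjusted p = 6.05e-06) at 6 h and of -4.74 (SE 0.205, adjusted p = 1.08e-16) without the 5 libraries. Of the 5, no LPS replicate 2 (8.28) was the lowest and 6 h replicate 4 (1.26) the highest of its group. The 2 h replicate 2 (18.2), which takes no part in that difference, read like a library without LPS.

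4632428N05Rik, now Vsir, encodes VISTA, an inhibitory receptor of the B7 family on myeloid cells. Its WT values were 45.7, 40.1, 37.1 and 42.1 RPKM without LPS and 20.5, 22.9, 18.1 and 18.6 at 1 h. The WT values at 2 and 6 h were 6.76, 8.89, 5.90 and 6.77 and 7.26, 7.55, 7.53 and 6.60. The 2 and 6 h groups overlapped and lay below all others. In dKO it read 64.5, 39.4, 55.1 and 72.9, 33.6, 13.7, 35.96 and 39.6, 15.1, 63.2, 10.6 and 9.99 and 10.4, 10.5, 8.15 and 11.9, and it fell at 6 h, with a difference of -2.42 (SE 0.356, adjusted p = 6.15e-06, and -2.66 without the 5). It lies within the span of Cdh23, which read at most 0.926 RPKM in any library.

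1600029D21Rik, now Plet1, a surface protein anchored by lipid, was the most abundant of the 109 loci and in WT was low only at 6 h. It read 581, 686, 580.3 and 644 RPKM in WT without LPS and 680.1, 692, 684 and 735 at 1 h. At 2 and 6 h WT read 656, 699.8, 583 and 705 and 93.2, 116, 100.04 and 77.9. The first 3 groups overlapped, and the highest 6 h library was at 116. Values in dKO were 411, 549, 439.5 and 447, 476, 607, 509 and 508, 537, 467, 485 and 130.4 and 102, 107, 78.2 and 561, where 2 h replicate 4 and 6 h replicate 4 stand out, and it fell, with a difference of -1.63 (SE 0.391, adjusted p = 0.000602) at 6 h (-2.18 without the 5). Its antisense partner 2310014F07Rik (Plet1os), which overlaps it, was at 2.28 ± 0.777 RPKM (SD, n = 4) and 0.0846 ± 0.0519, and reads of the pair cannot be told apart by strand.

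2410002F23Rik, a coding locus that spans a pair of small nucleolar RNA genes, was lower from 1 h on. It read 66.9, 65.9, 64.8 and 57.3 RPKM in WT without LPS, 16.996, 22.4, 17.7 and 19.2 at 1 h, 7.96, 9.70, 7.93 and 8.16 at 2 h and 6.54, 7.15, 7.29 and 6.61 at 6 h, with no overlap. Its dKO libraries gave 103, 33.1, 112 and 92.4 RPKM without LPS and 29.2, 12.5, 31.1 and 32.5 at 1 h. Later, at 2 and 6 h, they read 13.5, 90.8, 7.81 and 5.70 and 6.52, 6.83, 8.19 and 8.67. It fell in dKO, with differences of -1.62, -2.28 and -3.28 (-1.71, -3.25 and -3.75 without the 5 libraries). C130050O18Rik, which lies inside the span of 3110082I17Rik beside the receptor gene Gpr146, read 12.9, 11.6, 10.8 and 11.6 without LPS and 0.665, 0.253, 0.299 and 0.350 at 6 h, and Gpr146 was at -3.74, -4.44 and -3.21. C130050O18Rik fell in dKO, with a difference of -3.87 at 6 h and 3110082I17Rik with one of -3.09 (-4.47 and -3.77 without the 5 libraries).

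**Figure D4:**
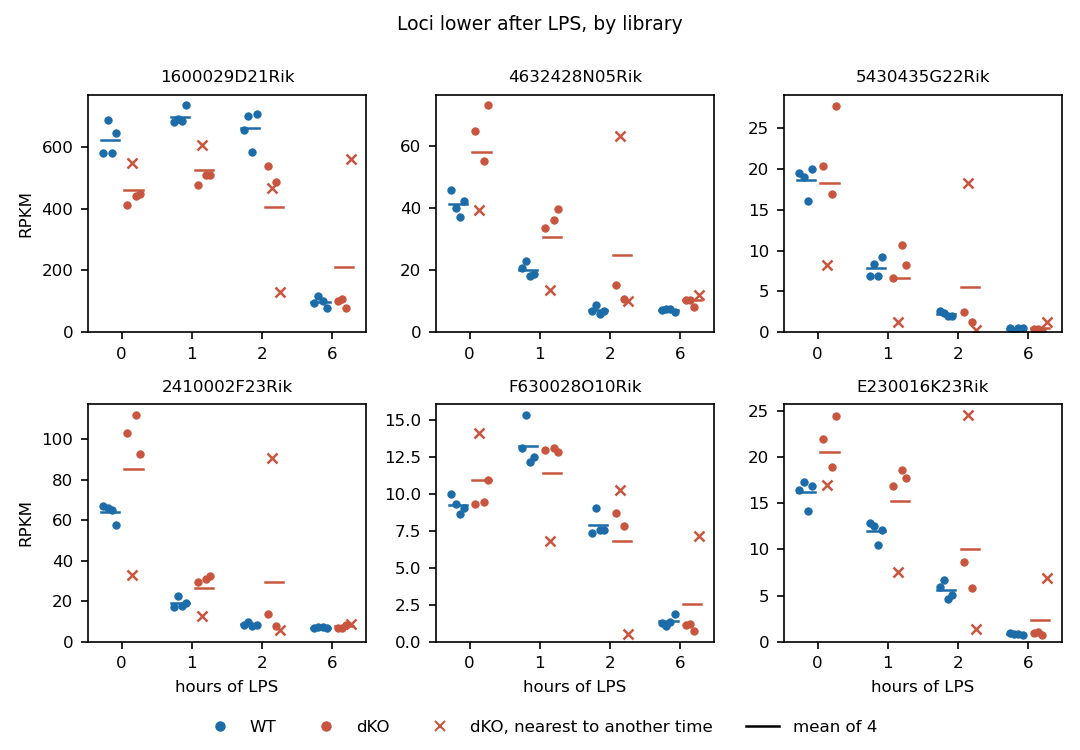
RPKM by library (y axis, linear from 0) against hours of LPS (x axis) for 6 loci that were lower after LPS; symbols as in the plot of the early loci. 1600029D21Rik and F630028O10Rik stay up to 2 h and are low at 6 h, while 4632428N05Rik, 5430435G22Rik and 2410002F23Rik are already lower at 1 h.

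Among the non-coding loci, F630028O10Rik is the host transcript of a myeloid microRNA that restrains granulocyte and macrophage activation: both mature miR-223 arms lie inside its span in GRCm38.p6. The arms are printed because the locus is known through them, with the seed (bases 2 to 8) in capitals.

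mmu-miR-223-3p (chrX:96242884-96242905, plus strand): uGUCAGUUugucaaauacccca
mmu-miR-223-5p (chrX:96242842-96242864, plus strand): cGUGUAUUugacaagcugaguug

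These libraries measured the host transcript and not the mature microRNA. F630028O10Rik read 9.96, 9.32, 8.67 and 9.03 RPKM in WT without LPS and 13.1, 15.3, 12.1 and 12.5 at 1 h. The WT values at 2 and 6 h were 7.37, 9.02, 7.57 and 7.58 and 1.29, 1.07, 1.33 and 1.86. The 1 h libraries were the highest, and the highest 6 h library was at 1.86. Values in dKO were 9.31, 14.1, 9.43 and 10.9, 12.99, 6.81, 13.1 and 12.8, 8.73, 10.2, 7.83 and 0.492 and 1.12, 1.18, 0.703 and 7.14, and it fell, with a difference of -2.34 (SE 0.498, adjusted p = 0.000181, and -2.80 without the 5) at 6 h.

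E230016K23Rik, a non-coding RNA that overlaps the chemokine gene Ccl6, read 16.4, 17.3, 14.1 and 16.9 RPKM in WT without LPS, 12.9, 12.6, 10.4 and 12.1 at 1 h, 5.94, 6.68, 4.67 and 5.03 at 2 h and 0.962, 0.857, 0.850 and 0.671 at 6 h, with no overlap between groups. Ccl6, at 2895 ± 284 RPKM without LPS and 895 ± 96.6 at 6 h (SD, n = 4), was lower by a smaller log2 difference (-1.69 against -3.65). The dKO libraries of E230016K23Rik read 21.97, 17.04, 18.97 and 24.5 RPKM without LPS and 16.9, 7.58, 18.6 and 17.7 at 1 h. Its 2 and 6 h values were 8.60, 24.6, 5.81 and 1.35 and 0.914, 0.987, 0.743 and 6.88. It fell in dKO, with a difference of -3.32 (SE 0.494, adjusted p = 6.41e-06, and -4.01 without the 5) at 6 h. The other lower non-coding loci were 2810008D09Rik (Snhg20, a small nucleolar RNA host gene), D930048N14Rik beside N4bp3, 2610507I01Rik, 5830428M24Rik, Gm5833, E330020D12Rik, 1500011B03Rik, 1700028J19Rik and 1600010M07Rik. With 2310014F07Rik, F630028O10Rik and E230016K23Rik these made 12, of which 8 fell in dKO at 1 h, 11 at 2 h and 11 at 6 h (9, 11 and 12 without the 5 libraries, and 1 rose at 1 h), where 44.1%, 53.8% and 60.2% of all genes fell (67.8%, 72.3% and 68.5%).

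DNA replication, repair and mitosis took 8 lower loci. 2810417H13Rik (Pclaf, which binds the sliding clamp PCNA) read 12.98, 13.9, 10.7 and 11.6 RPKM in WT without LPS, 10.5, 9.93, 7.29 and 12.2 at 1 h, 9.51, 5.98, 4.86 and 9.08 at 2 h and 1.43, 1.24, 1.10 and 2.08 at 6 h, so that only the 6 h group was apart from the rest. The others were 6720463M24Rik (Bora, an Aurora A cofactor), C230052I12Rik (Faap24, of the Fanconi anaemia core complex), 2310047B19Rik (Swsap1), 8430410A17Rik (Hmces, which shields abasic sites), 1110054O05Rik (Inip, of the SOSS complex), 8430406I07Rik (Mgme1, a mitochondrial exonuclease) and 1600002H07Rik (Tedc2). In dKO 6 of the 8 fell at 1 h, 6 at 2 h and 7 at 6 h (7, 8 and 8 without the 5 libraries). Of all genes 44.1%, 53.8% and 60.2% fell (67.8%, 72.3% and 68.5%), and the difference in shares was not tested. Over 24 named cell cycle genes (Mki67, Top2a, the Mcm genes and others) the median WT change was -0.44, -1.24 and -2.26, and in dKO 10, 20 and 21 fell and 1 rose at each time (14, 20 and 23 fell and 2, 2 and 1 rose without the 5 libraries). Of transcription and chromatin genes, C130039O16Rik (Mideas, of a histone deacetylase complex) was at -3.55 at 2 h in WT, and 2900092E17Rik (Pagr1a), Gm98 (Myrf) and the zinc-finger genes 3110052M02Rik (Zfp983) and Gm13157 (Zfp984) were lower too. Of these 5, 4 fell in dKO at each time, and all 5 without the 5 libraries, against the same shares of all genes.

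The loci not yet named were all lower in WT and are given by their ranges. With the largest change at 2 h, between -2.003 and -2.96, were Gm16515 (Natd1), 1700017B05Rik, 2310046O06Rik (Fam219b), 5730455O13Rik (Fra10ac1), 1190002N15Rik (Dipk2a), 4930471M23Rik (Slc35f6), 2210021J22Rik (Cdpf1), 5730409E04Rik, 4933411K20Rik (Cfap97) and 4833442J19Rik (Etfbkmt). The same range held 2810006K23Rik, 1700052N19Rik (Armt1), 3110057O12Rik (Abhd18), 4930444A02Rik (Pomk, a kinase of dystroglycan sugars), 2310022A10Rik, 1700030K09Rik, 1810049H13Rik (Oxld1), 0610009B22Rik, C330018D20Rik, 1700040I03Rik (Pradc1), 2610015P09Rik (Ccdc191), 1110020G09Rik and A430005L14Rik. With the largest change at 6 h, between -2.001 and -3.53, were 2210020M01Rik (Smim5), 6430548M08Rik, Gm1337 (Ankrd63), 1810011H11Rik (Tmem273), 9030418K01Rik (Fam217b), 8430419L09Rik (Fam234b), 9830001H06Rik (Soga1) and 1300001I01Rik (Cluh, which binds mRNAs of mitochondrial proteins). Here too were E130306D19Rik (Arhgef39), Gm11545, 5031439G07Rik, 2900026A02Rik, 6030446N20Rik (Tmem241), 1700012A16Rik (Shcbp1l), 1700025G04Rik, Gm5150, 1110004E09Rik (Cfap298), 1810014F10Rik, Gm7694, 1700024P16Rik (Fyb2), 2810405K02Rik (Prxl2b), 2010107H07Rik (Smim4) and 1700026L06Rik (Spaca9).

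A nearest named neighbour past the same threshold of 2 in the same direction was seen at 32 of the 92 loci that had a tested named gene within 50 kb (34.8%), and at 62 of 519 other Rik and Gm loci that passed the filter (11.9%). No neighbour of the 92 passed the threshold in the opposite direction, and 18 (3.47%) of the 519 did. The other loci were those whose own change was below the threshold, so the shares are a description with no test. Of the 109 loci, 14 (12.8%) overlapped another entry, as did 73 of the 616 others (11.9%). Besides Il1a, Il1b, Ifit3, Irgm1, Ccl5 and Gpr146, such neighbours included D14Ertd668e beside Gm4902 (4.37 at 6 h), N4bp3 beside D930048N14Rik (-3.57) and Plcb2 beside Gm1337 (-3.76). Named here means any symbol outside the Rik and Gm pattern, which lets in placeholders of other forms such as D14Ertd668e.

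Between genotypes few of the loci differed with all libraries in the test. The WT libraries in these comparisons also entered the choice of loci. With the 2 h groups fitted alone limma called 0 loci between genotypes (10 at an unadjusted p below 0.05). Without LPS, 0 loci were higher and 3 lower in dKO by limma (1 and 8 at an unadjusted p below 0.05; background of calls 0.932% and 5.91%), at 1 h 1 and 5 (1.84% and 9.02%), at 2 h 5 and 4 (5.15% and 7.24%), and at 6 h 3 and 4 (4.55% and 10.2%). Without the 5 libraries the counts were 7 and 17 (6.75% and 19.4%), 10 and 20 (9.80% and 29.4%), 12 and 18 (9.29% and 23.8%), and 12 and 28 (13.9% and 33.0%). Between 0% and 11.01% of the loci were higher and between 2.75% and 25.7% lower, near or below the shares of all genes in each comparison but the higher loci at 2 h without the 5 libraries (11.01% against 9.29%). With quantile normalization 17 were higher and 4 lower at 2 h, where 5 and 4 were without scaling, and the genes of all names split 1136 to 973 in place of 574 to 807.

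Gm5150, a coding locus on chromosome 3, was lower in dKO at 0, 1 and 2 h. Without LPS it read 4.55, 4.43, 4.30 and 4.64 RPKM in WT and 1.35, 1.14, 1.22 and 1.42 in dKO, and at 1 h 2.90, 3.01, 3.44 and 2.88 and 1.51, 0.948, 0.964 and 0.894. The genotypes did not overlap at either time. The difference was -1.49 (SE 0.242, adjusted p = 0.000105) without LPS and -1.19 (SE 0.242, adjusted p = 0.00117) at 1 h, and -1.45 and -1.15 without the 5 libraries. At 2 h it was -0.88 (SE 0.242, adjusted p = 0.0155, and -1.25 without the 5), a call lost without WT 2 h replicate 4 or dKO 2 h replicate 4 (adjusted p = 0.0575 to 0.0579).

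Gm13157 (Zfp984) read 9.01, 9.99, 8.89 and 8.39 RPKM in WT and 5.75, 2.21, 5.10 and 4.90 in dKO without LPS, and 7.91, 6.86, 7.35 and 5.90 and 2.12, 2.11, 2.29 and 1.14 at 6 h. The groups did not overlap, and the difference was -1.005 (SE 0.296, adjusted p = 0.0354, and -0.73 without the 5) without LPS, -1.02 (SE 0.296, adjusted p = 0.022, and -0.93 without the 5) at 1 h and -1.66 (SE 0.296, adjusted p = 0.000229, and -1.48 without the 5) at 6 h. Gm4951 was lower, with a difference of -1.98 (SE 0.474, adjusted p = 0.00811, and -1.71 without the 5) without LPS, with no overlap between the values given above. 2810417H13Rik (Pclaf) was lower, with a difference of -1.22 (SE 0.366, adjusted p = 0.0276, and -1.15 without the 5) at 1 h and -1.21 (SE 0.366, adjusted p = 0.0272, and -0.97 without the 5) at 2 h, where dKO read 5.84, 3.31, 2.99 and 4.07 and 3.87, 5.13, 2.95 and 0.867. At 2 h its groups overlapped through dKO replicate 2. Of the 24 cell cycle genes listed above, 9, 15, 5 and 2 were called lower in dKO at 0, 1, 2 and 6 h and 0 higher. Of all genes 5.91%, 9.02%, 7.24% and 10.2% were lower. Whether 2810417H13Rik differs apart from these genes was not tested. 1300014I06Rik at 1 h (-1.99, SE 0.409, adjusted p = 0.00122, and -1.44 without the 5) and 2900026A02Rik at 1 h (-0.82, SE 0.229, adjusted p = 0.0176, and -0.62 without the 5) were lower as well, and C130026I21Rik was higher (1.32, SE 0.382, adjusted p = 0.0216, and 1.09 without the 5).

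Several of these calls turned on 1 library. The calls of Gm13157 were lost without WT no LPS replicates 1, 2, 3 or 4 or dKO no LPS replicate 2 (adjusted p = 0.0623 to 0.206) for no LPS and without WT 1 h replicates 1, 2 or 4 or dKO 1 h replicate 2 (adjusted p = 0.0548 to 0.081) at 1 h. Those of 2810417H13Rik were lost without WT 1 h replicates 1, 2 or 4 or dKO 1 h replicates 2, 3 or 4 (adjusted p = 0.0506 to 0.0922) at 1 h and without WT 2 h replicates 1 or 4 or dKO 2 h replicate 4 (adjusted p = 0.0869 to 0.118) at 2 h. That of 2900026A02Rik was lost without WT 1 h replicates 2 or 3 or dKO 1 h replicate 2 (adjusted p = 0.0516 to 0.109), and that of C130026I21Rik without WT 1 h replicates 3 or 4 or dKO 1 h replicates 1 or 2 (adjusted p = 0.0646 to 0.107).

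At 2 h I830012O16Rik (-2.01, SE 0.651, adjusted p = 0.0396, and -1.45 without the 5) and 1200009I06Rik (-1.22, SE 0.360, adjusted p = 0.024, and -0.61 without the 5) were lower in dKO. Those calls were lost without WT 2 h replicates 1, 2, 3 or 4 or dKO 2 h replicate 2 (adjusted p = 0.0612 to 0.178) and without WT 2 h replicates 2 or 3 or dKO 2 h replicate 2 (adjusted p = 0.05 to 0.111) respectively. 1190002N15Rik, now Dipk2a, was higher: WT read 0.452, 0.412, 0.579 and 0.543 RPKM and dKO 1.71, 6.43, 1.18 and 3.61, a difference of 1.69 (SE 0.320, adjusted p = 0.000491) with all libraries and 0.96 (SE 0.206, adjusted p = 0.000853) without the 5. The groups did not overlap. For 1190002N15Rik dKO replicates 2 and 4, both among the 5, read above the others, with replicate 2 the highest. 4632428N05Rik (1.30), 3110057O12Rik (1.28), 1110020G09Rik (1.27) and 1700017B05Rik (1.04) were higher in dKO too. Here as well dKO 2 h replicate 2, which read like a library without LPS, was the highest of its group for each. Leaving it out alone ended the calls of 4632428N05Rik (adjusted p = 0.0526), 3110057O12Rik (0.0565) and 1110020G09Rik (0.0595). Without the 5 libraries the differences were 0.81, 0.45, 0.60 and 0.38, and the last was no longer called (limma, adjusted p = 0.0619).

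At 6 h the pseudogene Gm4956 read 12.2, 9.66, 8.44 and 12.2 RPKM in WT and 4.002, 3.08, 4.997 and 0.406 in dKO, with no overlap and a difference of -1.88 (SE 0.399, adjusted p = 0.00147), or -1.30 without the 5. 4833442J19Rik (Etfbkmt, -1.71, SE 0.377, adjusted p = 0.00212, and -1.51 without the 5) and 2310042D19Rik (Perm1, -1.18, SE 0.243, adjusted p = 0.00111, and -1.09 without the 5) were lower. 1190002H23Rik (1.31, SE 0.417, adjusted p = 0.0318, and 0.90 without the 5), 4930487H11Rik (1.14, SE 0.357, adjusted p = 0.0292, and 0.88 without the 5) and 1190002N15Rik (0.99, SE 0.320, adjusted p = 0.0347, and 1.29 without the 5) were higher, and dKO 6 h replicate 4 was the highest of its group for the first and second of these. The calls were lost without WT 6 h replicates 1, 2, 3 or 4 or dKO 6 h replicates 1 or 4 (adjusted p = 0.0509 to 0.183), without WT 6 h replicates 1, 2 or 4 or dKO 6 h replicate 4 (adjusted p = 0.0628 to 0.142) and without WT 6 h replicates 1, 3 or 4 or dKO 6 h replicates 1 or 2 (adjusted p = 0.0643 to 0.151) in that order.

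Markers of other cells moved with genotype. The summed level of the 9 granulocyte markers in the tables, of which 8 passed the filter, was 572 to 729 RPKM in WT and 206 to 411 in dKO without LPS, and that of the 10 macrophage markers was 1980 to 2333 and 1236 to 1978. At 6 h the granulocyte sum was 425 to 643 and 239 to 402, and the macrophage sum ran the other way, 583 to 787 in WT and 853 to 1507 in dKO. Between genotypes 4, 4, 7 and 4 granulocyte markers were called lower at 0, 1, 2 and 6 h. Of the macrophage markers 3, 3, 3 and 1 were lower and 1, 2, 2 and 3 higher, and of the 10 dendritic cell markers 4, 5, 4 and 4 were lower. Of the 4 mast cell and basophil markers tested, 3, 3, 3 and 0 were lower. Of all genes 5.91%, 9.02%, 7.24% and 10.2% were lower and 0.932%, 1.84%, 5.15% and 4.55% higher. These sums and counts are with all libraries, so the dKO ranges hold the 5 libraries nearest to another time. The 5 B cell markers summed to at most 2.32 RPKM in any library. Their part in the genotype differences was not tested, and in bulk RNA fewer cells of a type and less RNA per cell cannot be told apart.

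**Figure D5:**
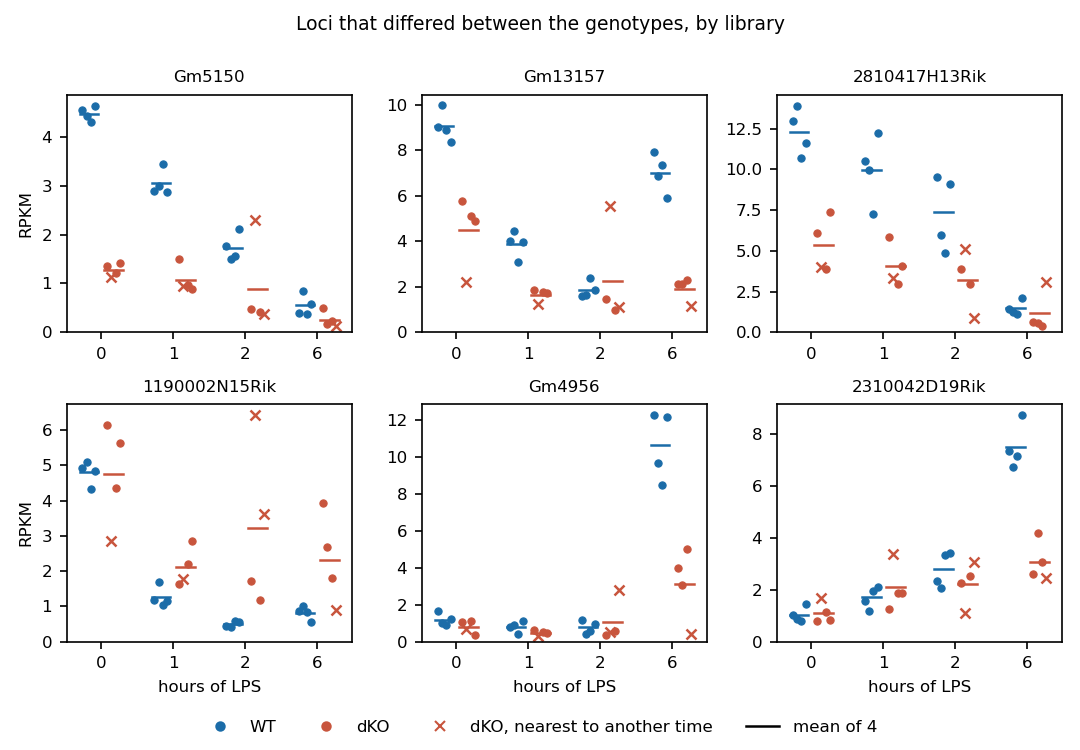
RPKM by library (y axis, linear from 0) against hours of LPS (x axis) for 6 loci called between the genotypes; symbols as in the plot of the early loci. Gm5150 and Gm13157 are lower in dKO without LPS, and Gm4956 and 2310042D19Rik are lower in dKO at 6 h.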

How the data were processed

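RNA of 32 libraries was sequenced by the submitters with the TruSeq RNA kit version 2, per the labels' protocols; the submitters' processing notes name CASAVA 1.8.2 and mm9, and aligner settings and counting are not given in the sources used here. The deposited RPKM were made by the authors; positions are those of the tables. A second deposited value, a signal in whole numbers read from its ratio to RPKM as aligned bases, served for depth only, and read counts cannot be had from it, so no counting interval is given. No scaling between libraries was added.

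Values were log2(RPKM + 0.5). The pseudocount makes log2 differences smaller in size, and more so at low levels, which applies to every difference given here. limma 3.58.1 (R 4.3.3) was fitted to 11154 genes with 8 group means and an intensity trend, two-sided, with Benjamini-Hochberg adjustment over all of them and calls below 0.05; the script was tested on simulated data. The 3 LPS comparisons in dKO share their controls. The difference of the response between genotypes was not tested, since it holds the WT change that chose the loci. Names, promoters and microRNAs come from RefSeq tables (GRCm38.p6), and entries longer than 3 Mb (6 of them) were left out of overlaps. Replicate numbers were not used as pairs: 1 of 16 WT and dKO pairs of the same number had deviations correlated above 0.1, as had 16 of 24 same-numbered pairs of WT libraries across times (median r 0.14) and 5 of 24 in dKO.

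The loci, lists and role groups were chosen with earlier results of these data known. The naming rule took every locus by name. Values in every library were due to the 5 largest WT changes per direction and time, the smallest adjusted p per comparison, the highest levels and known genes; they are printed in full for the loci described at length, in some groups only for others, and the rest are given by means, changes or ranges. Alternatives were pseudocounts of 0.1 and 1, 2 scalings, no filter and a filter at 5 RPKM, fits on 2 groups alone, a replicate block, thresholds of 1.5 and 2.5, each library left out, and all 5 libraries left out.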

Additional observations from a re-analysis of the deposited data

Results flagged for a closer look

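A library was listed when the gap between it and the nearest of the other 3 of its group, on the log2 scale, was a larger share of the group's range than the 95% critical value of Dixon's test for 4 samples. Chance lists about 1 in 20 groups. Over the 109 loci and 8 groups, 148 of 872 pairs of locus and group (16.97%) had such a library, and 115 of the 148 fell on the 5 dKO libraries nearest to another time. By library, dKO no LPS replicate 2 stood apart in 37 loci, dKO 6 h replicate 4 in 35, dKO 1 h replicate 2 in 29, dKO 2 h replicate 2 in 10 and dKO 2 h replicate 4 in 4. The 2 h group held a pair of such libraries at opposite ends, and the rule compares 1 library with the other 3.

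Among the 27 loci followed most closely, RPKM values that stood apart were as follows. dKO no LPS replicate 2 was the highest of its group for Gm14047 (19.7), Gm14023 (39.1), A630072M18Rik (23.1), Gm6377 (82.9) and 1190002H23Rik (74.3) and the lowest of its group for Gm5431 (0.990), 2410002F23Rik (33.1) and A830007P12Rik (7.05). dKO 6 h replicate 4 was the highest of its group for Gm14023 (16.8), A630072M18Rik (48.5), Gm6377 (48.2), 4930487H11Rik (3.75), 1600029D21Rik (561), E230016K23Rik (6.88) and 2810417H13Rik (3.10) and the lowest of its group for Gm14446 (12.6), I830012O16Rik (8.10), Gm4902 (48.6), Gm4951 (3.27), Gm5431 (14.6), Gm11435 (3.47), A830007P12Rik (3.69) and Gm13157 (1.14). dKO 1 h replicate 2 was the highest of its group for Gm14446 (11.2), I830012O16Rik (4.93), Gm4902 (34.6), Gm12250 (39.6), Gm5431 (11.9) and A530032D15Rik (15.1) and the lowest of its group for Gm6377 (49.5), 4632428N05Rik (13.7), 2410002F23Rik (12.5), F630028O10Rik (6.81) and E230016K23Rik (7.58). dKO 2 h replicate 2 was the highest of its group for C130050O18Rik (15.5) and Gm5150 (2.31) and the lowest of its group for A530032D15Rik (0.982). dKO 2 h replicate 4 was the highest of its group for Gm4956 (2.81) and the lowest of its group for 1600029D21Rik (130.4) and F630028O10Rik (0.492).

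The other values were single ones. The highest of their groups were 1190002H23Rik in WT no LPS replicate 4 (18.7), Gm12250 in WT 6 h replicate 1 (46.6), 2410002F23Rik in WT 2 h replicate 2 (9.70) and F630028O10Rik in WT 2 h replicate 2 (9.02). So was Gm5150 in dKO 1 h replicate 1 (1.51). The lowest of their groups were Gm6377 in WT 1 h replicate 3 (71.4), Gm12250 in WT 1 h replicate 2 (2.22), Gm4951 in WT 6 h replicate 4 (19.9) and 5430435G22Rik in WT 6 h replicate 2 (0.121). No cause was tested.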

How the results depend on the processing

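The number of loci that meet the rule, 109, came to 214 and 59 with pseudocounts of 0.1 and 1, to 64 and 68 with median-of-ratios scaling and quantile normalization, to 253 and 46 with thresholds of 1.5 and 2.5, and to 105 to 114 on leaving out 1 WT library. Loci called in dKO numbered 68, 94 and 99 at 1, 2 and 6 h of LPS. The 1 h count was 44 and 45 under the 2 scalings and 43 with the filter at 5 RPKM, and 33 to 81 on leaving out 1 library. The 2 h count was 0 by limma with its 2 groups fitted alone (61 at an unadjusted p below 0.05) and 72 to 105 on leaving out 1 library, and the 6 h count 91 to 105. Loci called between genotypes numbered 3, 6, 9 and 7 at 0, 1, 2 and 6 h. Without the 5 libraries they numbered 24, 30, 30 and 40, and with the 2 groups fitted alone 14, 10, 0 (10 at an unadjusted p below 0.05) and 14. The count without LPS was 6 with a pseudocount of 1, the 2 h count 16 and 21 under the 2 scalings, and the 6 h count 12 with quantile normalization. On leaving out 1 library these 4 counts ranged over 2 to 5, 2 to 5, 5 to 24 and 4 to 9. The cause of these shifts was not tested. At 1 h between genotypes the count was 2 without dKO replicate 2 and 3 without WT replicate 2 or 4. At 2 h the count was 20 and 24 without dKO replicates 1 and 3 and 5 without dKO replicate 2 or WT replicate 4, at 6 h it was 4 without WT replicate 1 or 4, and without LPS 5 without dKO replicate 4. A replicate block, with the number as a term, gave 55, 84 and 95 in dKO and 3, 6, 7 and 7 between genotypes. No call of the 56 loci that the naming rule tests singly reversed its direction under any alternative run. Of their 152 calls, 67 were lost with the 2 groups fitted alone, and 51 on leaving out some 1 library. The 2 scalings lost 22 and 23, the replicate block 18, no filter 13, and pseudocounts of 0.1 and 1 lost 8 and 4. The filter at 5 RPKM lost 1 of the calls it still tested. Leaving out the 5 libraries, which were picked from these same data, lost 0 of the 152. Outside the 152, the 2 h call of 1700017B05Rik between genotypes was lost, so that 8 of the 9 loci called there were kept. Depth limits are unknown for lack of read counts, and the 4 libraries per group set the precision.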
